A study of Mus musculus with 6 samples.

Results

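The genes described here are 10 members of the machinery that loads peptides onto major histocompatibility complex (MHC) class I molecules, out of 54838 genes in the deposited table. They were taken by symbol, and all 10 were found: the heavy chain genes H2-K1, H2-D1 and H2-Q4, the light chain gene B2m, the peptide transporter genes Tap1 and Tap2, the loading factor gene Tapbp, the immunoproteasome genes Psmb8 and Psmb9, and the peptide-trimming gene Erap1. RNA was sequenced from mouse B16F10 melanoma cells treated with fenofibrate at 50 µM (n = 3 libraries) and from control cells (n = 3), which the submitters describe as triplicates. Fenofibrate is a fibrate drug whose acid form activates the nuclear receptor PPARα. The vehicle of the control cells and the time of treatment are not given in the sources used here. B16F10 is an established melanoma line derived from a mouse tumour. The cell line field of the labels reads B16F10 to B16F15 over the libraries in order, and if that is meant as written, line and treatment cannot be told apart.

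The proteasome cuts cytosolic proteins into peptides, and in the immunoproteasome the inducible subunits encoded by Psmb8, Psmb9 and Psmb10 take the places of those encoded by Psmb5, Psmb6 and Psmb7. The TAP1/TAP2 transporter carries peptides into the endoplasmic reticulum, where the aminopeptidase ERAP1 trims them and tapasin (Tapbp) bridges the transporter to an empty heavy chain paired with β2-microglobulin (B2m). Interferons raise these genes, in part through IRF1, and NLRC5 acts as a transactivator at class I promoters. B16 melanoma is a textbook example of a tumour with low class I presentation that interferon-γ can raise.

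The libraries held 13540038 to 14710856 counts, and the limit set by a count of 0 was 0.204 to 0.222 CPM (counts scaled to the library total), for counting error only. The 7 melanocyte markers looked up (Mitf, Pmel, Tyr, Tyrp1, Dct, Mlana and Sox10) summed to 21209 to 22592 CPM in control and 26034 to 27577 CPM with fenofibrate and none of them was at 0. The 12 leukocyte markers summed to 3 to 6 counts per control library and 12 to 15 per fenofibrate library, and 6 of them, Cd3e, Cd3d, Itgam, Adgre1, Nkg7 and Ncr1, had 0 counts in all libraries. The 7 fibroblast and endothelial markers summed to 17 to 46 counts and the 5 epithelial markers to 20 to 30 counts per library.

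The promoter stretches of the 3 heavy chain genes are shown first, as the place where interferon and NF-κB are known to act on class I genes. Whether their letters relate to the RNA levels below was not tested. They run from the place of the κB site to the end of the interferon response core, 5′ to 3′ on the gene's strand, from RefSeq promoter windows of GRCm38.p6. Capitals mark the κB motif GGGGATTCCC, taken as it stands in H2-K1, and the interferon response core TTTCNNTT.
H2-K1, chr17:34000430-34000458, minus strand: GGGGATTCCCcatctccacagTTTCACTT
H2-D1, chr17:35262923-35262951, plus strand: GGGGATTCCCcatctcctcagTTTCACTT
H2-Q4, chr17:35379443-35379471, plus strand: ggggatttcccatctccccagTTTCACTT

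Counted from 1 at the first base of the stretch, H2-K1 and H2-D1 differ at 1 position (A18T). H2-Q4 differs from H2-K1 at 2 positions (C8T and A18C) and from H2-D1 at 2 (C8T and T18C), and C8T lies within the κB motif. Searched on both strands of the 250 bases before the start site, these κB letters were found in 28 of 32851 mouse promoter windows (0.0852%), that of H2-D1 among them, and not in that of H2-Q4. TTTCNNTT was found in 21.3% of all windows. It was also in the B2m window, on the other strand. Over the 250 bases, the best local alignment had 89.6% identity between H2-K1 and H2-D1, 81.9% between H2-K1 and H2-Q4 and 80.9% between H2-D1 and H2-Q4. The core, this stretch and the local alignment were chosen after the sequences were seen. A match describes letters only, and a missing match says only that these letters are not in the window. Only the κB letters of H2-K1 were searched, so the missing match does not show that H2-Q4 lacks a κB site.

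Longer stretches of H2-Q4, H2-K1 and B2m show the other motifs before the start site. The H2-K1 stretch leaves out bases that the annotation gives as exon, and with them a CCAAT motif 6 to 2 bases before the RefSeq start. Capitals mark the κB motif, the interferon response core, the cyclic AMP response half-site TGACG and CCAAT, each on either strand.
H2-Q4, chr17:35379437-35379616, plus strand: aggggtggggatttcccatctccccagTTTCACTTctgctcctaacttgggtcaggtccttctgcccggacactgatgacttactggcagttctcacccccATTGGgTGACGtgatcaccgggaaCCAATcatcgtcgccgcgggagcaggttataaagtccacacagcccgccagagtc
H2-K1, chr17:34000348-34000527, minus strand: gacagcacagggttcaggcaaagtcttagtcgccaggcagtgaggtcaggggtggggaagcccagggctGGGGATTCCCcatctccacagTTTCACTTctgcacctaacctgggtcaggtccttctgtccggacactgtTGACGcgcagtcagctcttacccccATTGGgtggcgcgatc
B2m, chr2:122147506-122147685, plus strand: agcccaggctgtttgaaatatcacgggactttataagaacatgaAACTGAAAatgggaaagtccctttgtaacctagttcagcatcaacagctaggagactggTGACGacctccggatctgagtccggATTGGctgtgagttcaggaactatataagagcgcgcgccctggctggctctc

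The 250-base windows of H2-K1, H2-D1, H2-Q4, B2m, Tap1 and Psmb9 each held TGACG (17.8% of all windows) and CCAAT (33.8%). In H2-K1 and H2-D1 the TGACG lay between the interferon response core and the first CCAAT motif, while in H2-Q4 it came 1 base after that motif. The Tapbp window held CCAAT only, and those of Psmb8 and Erap1 held none of the motifs searched. Tap2 was not matched to a window.

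Fenofibrate-treated cells held less RNA of H2-Q4 and Erap1, and no member was called higher. Of the 9 members with enough counts to be tested, 2 were called lower, 0 higher and 7 were not called, where a call is a Benjamini-Hochberg adjusted p under 0.05 over all 13629 genes tested with edgeR's quasi-likelihood test. The background is high: 39.1% of all genes tested were called, 19.5% upward and 19.5% downward. Without adjustment 1 member was higher (B2m) and 3 were lower at an edgeR p under 0.05. At least 39.1% of all genes tested pass that threshold, since every called gene does. DESeq2 and limma also called 0 members higher. The groups did not overlap for 4 of the 9 (H2-Q4, Erap1, Tapbp and B2m), against 53.3% of all genes tested. The median log2 fold change of the 9 members was -0.218, against -0.00214 for all genes tested, and it was -0.117 without control replicate 1. With libraries scaled by their totals alone, 2180 genes were called higher and 3280 lower, against 2664 and 2662 with the TMM scaling used here, and Tapbp was then called too. All p-values measure the spread between these libraries.

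H2-K1 (ENSMUSG00000061232, chromosome 17, 33996017 to 34000333) and H2-D1 (ENSMUSG00000073411, chromosome 17, 35262730 to 35267499) encode the classical heavy chains that present peptides to CD8 T cells. H2-K1 was at 65.6, 57.3 and 68.5 normalised CPM (CPM after TMM scaling) in the control libraries and at 59.8, 62.3 and 45.1 with fenofibrate. The groups overlapped, and fenofibrate replicate 3 was the lowest of the 6 libraries. Without that library the log2 fold change was -0.06. The fitted difference, on the log2 scale, was -0.20 ± 0.13 (SE) and its 95% interval spanned -0.49 to 0.10 (edgeR adjusted p = 0.260).

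H2-D1 was at 187, 179.7 and 214 normalised CPM in control and at 224, 224 and 186 with fenofibrate. These groups overlapped too, with 2 fenofibrate libraries above every control library and the other one within the control range. The log2 fold change was 0.13 ± 0.09 (95% interval -0.09 to 0.34, edgeR adjusted p = 0.307). For both classical genes the interval leaves out a change of 1.5-fold: it ran from 0.711-fold to 1.07-fold for H2-K1 and from 0.942-fold to 1.27-fold for H2-D1.

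H2-Q4 (ENSMUSG00000035929, chromosome 17, 35379617 to 35385290), a non-classical heavy chain gene of the Q region, was at 55.1, 49.5 and 46.4 normalised CPM in control and at 27.9, 31.8 and 27.1 with fenofibrate. The groups were separate, with every fenofibrate library well below the lowest control library. The mean fell from 50.3 ± 4.41 to 28.9 ± 2.51 (SD, n = 3 each), a level 1.74-fold lower (log2 fold change -0.80 ± 0.09, 95% interval -1.01 to -0.58, edgeR adjusted p = 0.000523).

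The share of H2-Q4 in the summed RNA of the 3 heavy chain genes, per kilobase of merged exon, was 18.3%, 17.6% and 14.4% in control and 9.11%, 10.2% and 10.7% with fenofibrate. This share was computed after the values of the genes were seen, so it restates them and was not tested.

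Class I genes are near copies of each other, and their counts depend on how the authors' counting placed shared reads, which the sources used here do not give. Of the distinct 50-base words in H2-Q4 transcripts, 36.4% also occurred in transcripts of another gene (on either strand), most often Gm11131, which overlaps H2-Q4 on the other strand, and then H2-Q6. The share was 14.1% for 100-base words. For H2-K1 it was 9.63% and 0.957%, and for H2-D1 12.8% and 3.59%. Gm11131 had 0 counts in 5 libraries and 1 in fenofibrate replicate 1, and H2-Q6 had at most 2 in any library.

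B2m (ENSMUSG00000060802, chromosome 2, 122147686 to 122153083), the light chain shared by all class I molecules, was at 1049, 1154 and 1160 normalised CPM in control and at 1291, 1201 and 1174 with fenofibrate. Every fenofibrate library lay above every control library on this scale, though replicate 3 only narrowly, and in CPM of the library totals the groups overlapped. The log2 fold change was 0.12 ± 0.05 (95% interval 0.00 to 0.25) and did not pass the test (edgeR adjusted p = 0.1001). No 50-base word of B2m occurred in a transcript of another gene. The summed deposited FPKM of the heavy chains was 6.84%, 5.84% and 6.69% of that of B2m in control and 5.83%, 6.37% and 5.35% with fenofibrate, which overlap (exact two-sided permutation p = 0.2, adjusted p = 0.4 over the 4 ratios tested, where 3 against 3 libraries cannot give a p below 0.1).

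**Figure D1:**
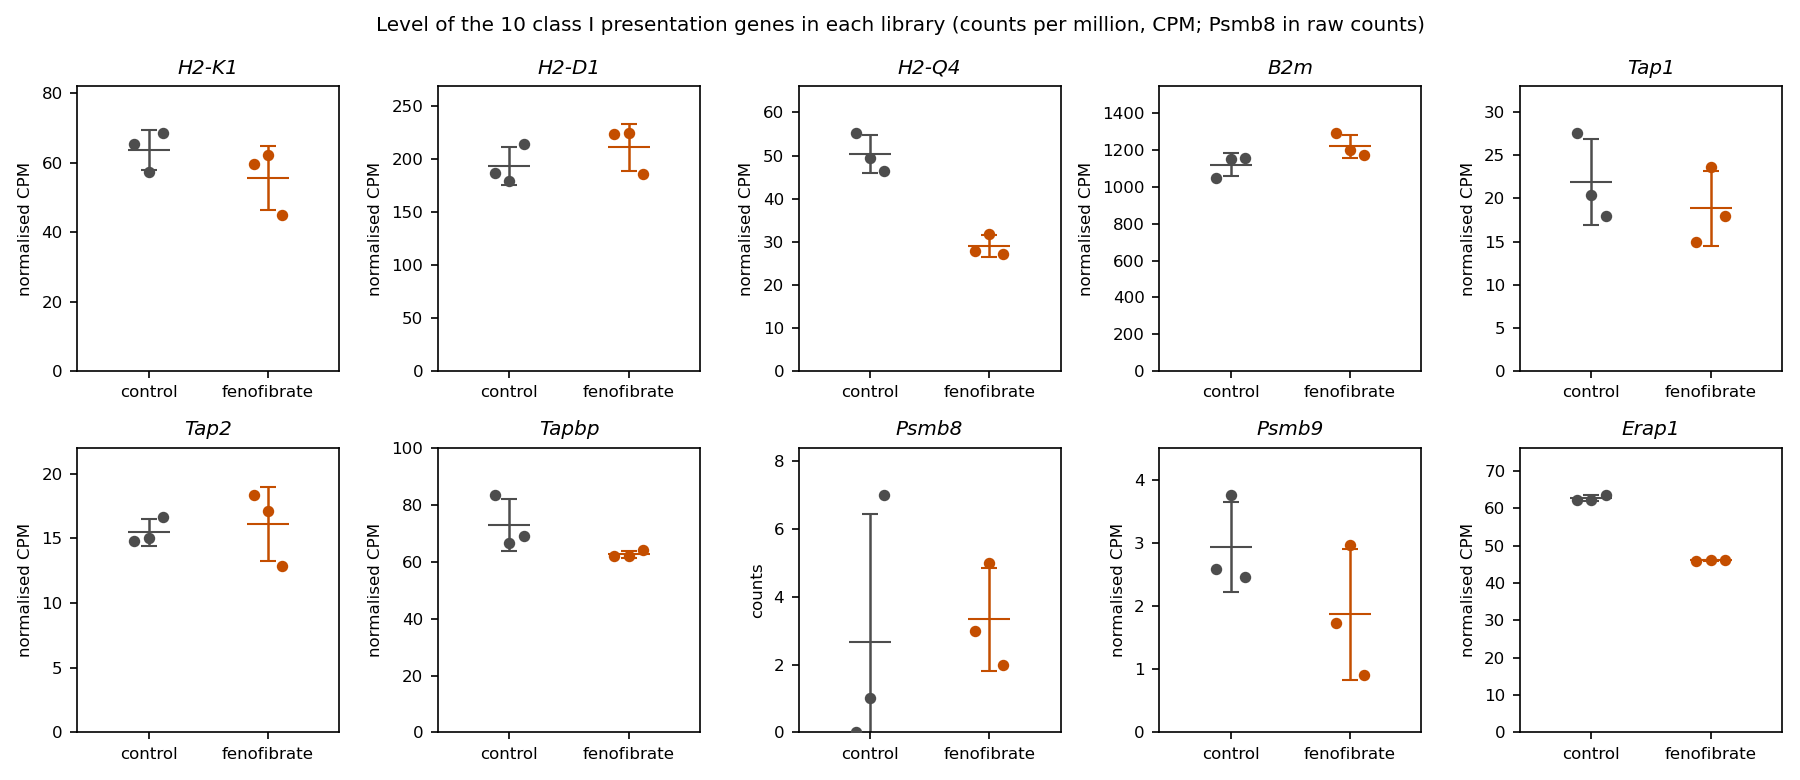
Level of each of the 10 genes in each library: normalised CPM on the vertical axis, except Psmb8, shown in raw counts. Points are libraries, and bars are the mean and SD of 3 libraries. H2-Q4 (27.1 to 31.8 against 46.4 to 55.1) and Erap1 (45.9 to 46.2 against 62.2 to 63.5) show separate groups with fenofibrate below control.

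Tap1 and Tap2 encode the paired chains of the peptide transporter and lie next to Psmb9 and Psmb8 on chromosome 17. Tap1 (ENSMUSG00000037321, 34187553 to 34197225) was at 27.5, 20.4 and 17.9 normalised CPM in control and at 14.9, 23.6 and 18.0 with fenofibrate. Its libraries were spread within both groups and the groups overlapped (log2 fold change -0.22 ± 0.21, 95% interval -0.70 to 0.26, edgeR adjusted p = 0.434). Without control replicate 1, its highest library, the log2 fold change was -0.02.

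Tap2 (ENSMUSG00000024339, 34203527 to 34216321) was at 14.8, 15.0 and 16.7 normalised CPM in control and at 18.3, 17.1 and 12.8 with fenofibrate. Its treated libraries were both the highest and the lowest of the 6 (log2 fold change 0.06 ± 0.14, 95% interval -0.27 to 0.38, edgeR adjusted p = 0.781), and the sign changed with the method, to -0.01 with limma on log2(FPKM + 0.5).

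Tapbp (ENSMUSG00000024308, 33915899 to 33929292), which encodes tapasin, was at 83.6, 66.6 and 69.3 normalised CPM in control and at 62.1, 62.0 and 64.2 with fenofibrate. The 3 treated libraries lay close together below all controls, but the difference missed the threshold (log2 fold change -0.22 ± 0.09, 95% interval -0.43 to -0.01, edgeR adjusted p = 0.0853). It passed when libraries were scaled by their totals alone (adjusted p = 0.0424), and without control replicate 1, the highest library, the log2 fold change was -0.12 (adjusted p = 0.193). Zbtb22, which overlaps Tapbp on the same strand, was called higher (log2 fold change 0.29, edgeR adjusted p = 0.0355).

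Erap1 (ENSMUSG00000021583, chromosome 13, 74639568 to 74693201), the only member outside chromosomes 17 and 2, showed the tightest groups. It was at 62.2, 62.2 and 63.5 normalised CPM in control and at 45.9, 46.0 and 46.2 with fenofibrate. The mean fell from 62.6 ± 0.777 to 46.1 ± 0.174 (SD, n = 3 each), 1.36-fold lower in 3 of 3 libraries (log2 fold change -0.44 ± 0.05, 95% interval -0.56 to -0.33, edgeR adjusted p = 0.000458). Cast, the calpastatin gene that overlaps Erap1 on the other strand, rose (log2 fold change 0.60, edgeR adjusted p = 0.000211). Of the 50-base words of Erap1, 10.7% also occurred in Cast transcripts, and with no strand setting given, reads from that stretch cannot be assigned to one of them.

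Psmb8 and Psmb9 encode the immunoproteasome subunits β5i and β1i. Psmb8 (ENSMUSG00000024338, 34197721 to 34201454) was counted 0, 1 and 7 times in control and 3, 5 and 2 times with fenofibrate, too few to be tested. The sums were 8 counts (exact 95% Poisson interval 3.45 to 15.8) and 10 counts (4.80 to 18.4), which cover counting error only, and no difference was detectable at this depth.

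Psmb9 (ENSMUSG00000096727, 34181988 to 34187764) was counted 36, 54 and 34 times in control and 23, 42 and 13 times with fenofibrate. The groups overlapped through fenofibrate replicate 2, and the log2 fold change of -0.65 ± 0.40 had a wide 95% interval, -1.58 to 0.27 (edgeR adjusted p = 0.229). Without that library the log2 fold change was -1.16 and passed (adjusted p = 0.0493). It was -0.32 (adjusted p = 0.487) without fenofibrate replicate 3 and -0.44 (adjusted p = 0.490) without control replicate 2. Psmb9 and Tap1 are transcribed in opposite directions and overlap at their starts, and 4.19% of the 50-base words of Psmb9 are shared with Tap1.

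The inducible subunits were far below the constitutive ones in both groups. Per kilobase of merged exon, Psmb8 RNA was 0.0760% ± 0.107 of Psmb5 RNA in control and 0.106% ± 0.0438 with fenofibrate (SD, n = 3 each). Psmb9 was 1.42%, 2.05% and 1.35% of Psmb6 in control and 0.943%, 1.46% and 0.465% with fenofibrate. Psmb10, the gene of the β2i subunit, was 19.0%, 17.5% and 19.0% of Psmb7 in control and 15.6%, 18.7% and 15.5% with fenofibrate. By deposited FPKM, on which the ratios were tested, Psmb10 was 8.33%, 7.67% and 8.34% in control and 6.84%, 8.19% and 6.80% with fenofibrate. All 3 ratios overlapped between the groups, with exact two-sided permutation p values of 0.7, 0.3 and 0.2 and adjusted values of 0.7, 0.4 and 0.4. Psmb5, Psmb6 and Psmb7 themselves were not called.

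**Figure D2:**
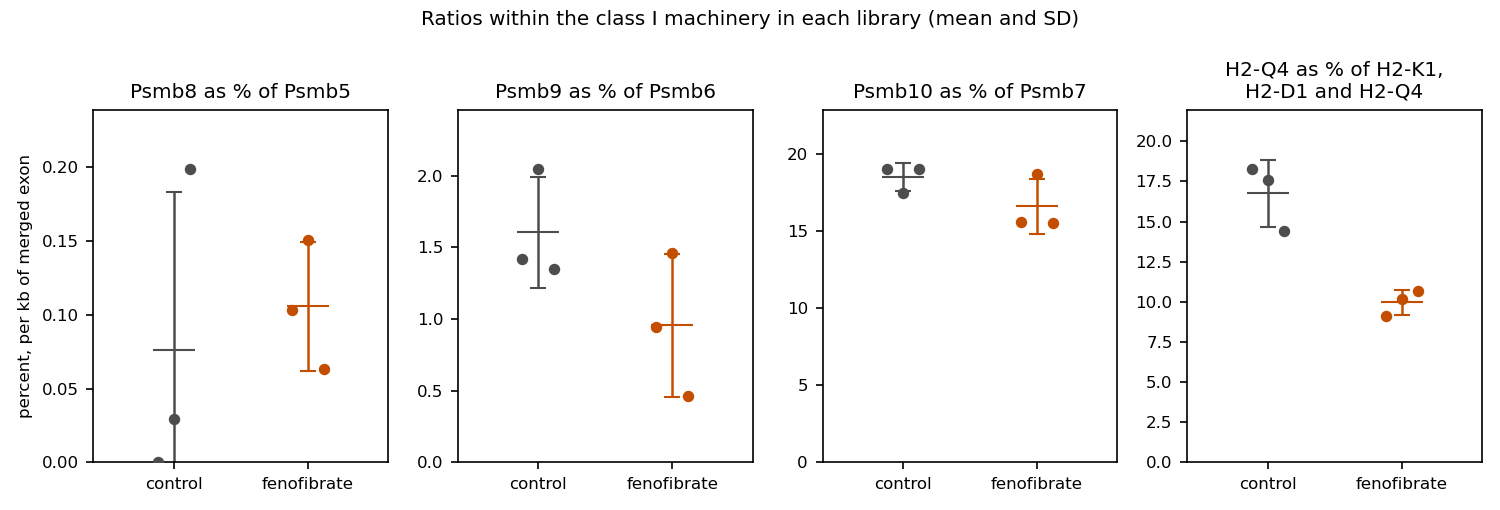
Percent of one gene's RNA relative to another's, per kilobase of merged exon, in each library (points) with mean and SD of 3 libraries. Psmb8 and Psmb9 lie at or below 2.05% of their constitutive counterparts and Psmb10 between 15.5% and 19.0%, and the H2-Q4 share of the heavy chains is 9.11% to 10.7% with fenofibrate against 14.4% to 18.3% in control.

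As CPM per kilobase of merged exon, the order of levels in control was B2m (1326 ± 70.6), H2-D1 (76.4 ± 6.88), H2-K1 (22.1 ± 1.97), Tapbp (20.5 ± 2.61), H2-Q4 (19.7 ± 1.79), Erap1 (8.76 ± 0.0787), Tap2 (4.17 ± 0.266), Tap1 (4.08 ± 0.941), Psmb9 (0.818 ± 0.200) and Psmb8 (0.0578 ± 0.0825), each with the SD of 3 libraries. H2-K1, Tapbp and H2-Q4 could not be ordered, since the ranges of neighbours overlapped, nor could Tap1 and Tap2. Only 20 genes of the table had a higher level than B2m in control. With fenofibrate the order was the same, but H2-Q4 (10.9 ± 0.976) no longer overlapped Tapbp (16.9 ± 0.321). The lengths behind the deposited FPKM were 2.47 times the merged exon length for H2-K1, 2.14 times for Tap1 and 1.2 times for H2-D1, so that levels by deposited FPKM put H2-K1 and Tap1 lower than these values do.

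**Figure D3:**
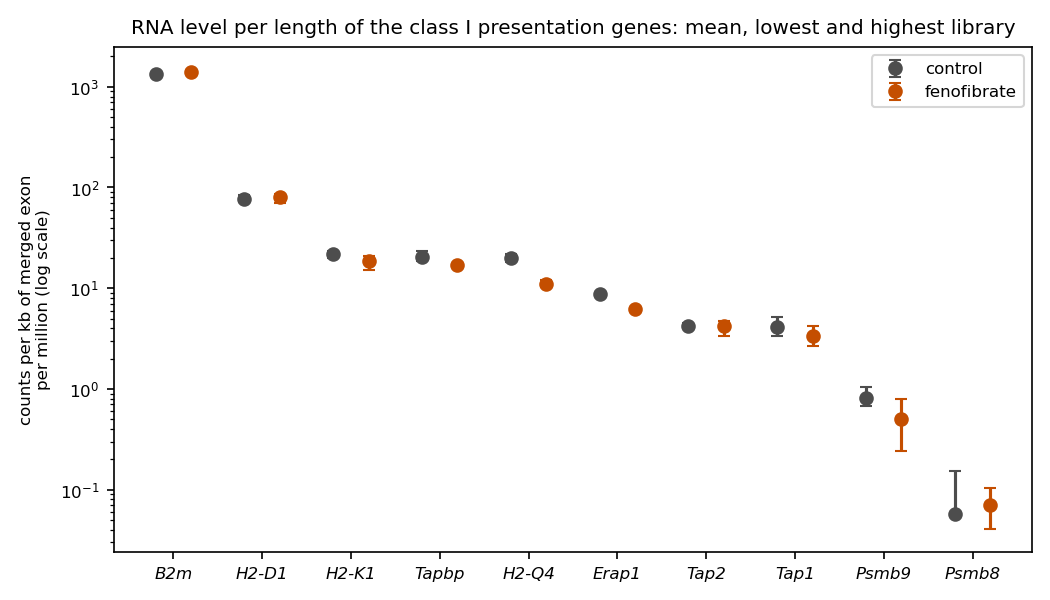
Level of each gene as CPM per kilobase of merged exon, on a log axis, as the mean (point) and the lowest and highest of 3 libraries (bars). The lower bar of Psmb8 in control is not drawn, because 1 library was at 0. B2m (control mean 1326) lies far above H2-D1 (76.4), and H2-Q4, Erap1 and Tapbp are lower with fenofibrate without overlap.

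The genes whose profile over the 6 libraries was most like that of 3 members were looked up among 10932 genes, by the root mean square difference of centred log2 normalised CPM. For H2-K1 the nearest were Ifi35 (0.048), Elf4 (0.0522) and Mxd3 (0.0533). For B2m they were Arf2 (0.0283), Idh3g (0.0284) and Ndufa10 (0.0296), and for Tap1 4930558J18Rik (0.0984), 2310015A10Rik (0.101) and Faah (0.115). None of the 9 was called between the groups with edgeR. This follows largely from their selection, since H2-K1, B2m and Tap1 were not called either.

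Of the 15 other class I heavy chain genes, 4 were tested, of which 1 fell and 3 were not called. Of all genes tested, 19.5% were called lower. H2-K2, a transcribed pseudogene near H2-K1, was counted 47, 36 and 38 times in control and 13, 11 and 9 times with fenofibrate. It was 3.61-fold lower with separate groups (log2 fold change -1.85 ± 0.25, edgeR adjusted p = 0.00118). H2-K2 reached the minimum count of 10 in all 3 libraries only in control, the group where it is high, and in 2 with fenofibrate. Of its 50-base words, 9.38% also occur in other genes. H2-T22, the most counted of this list, had 1672 counts in control and 1901 with fenofibrate and was not called (log2 fold change 0.19 ± 0.12, adjusted p = 0.227). Of 9 class I-like genes tested, 2 rose and 7 were not called, where 19.5% of all genes tested were called higher. Ulbp1, which encodes a ligand of the activating receptor NKG2D, rose 1.49-fold (edgeR adjusted p = 0.00072), and Procr, the endothelial protein C receptor gene, 1.77-fold (adjusted p = 0.00446). Raet1d (log2 fold change 0.15), Raet1e (-0.24) and H60b (-0.24) of the same list were not called.

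Among transcriptional regulators of class I genes, 18 were tested, of which 7 fell, 1 rose and 10 were not called. Over all genes tested, 39.1% were called, 19.5% lower and 19.5% higher. Irf1, the interferon regulatory factor gene, was at 13.3, 18.9 and 17.1 normalised CPM in control and 5.96, 6.80 and 7.50 with fenofibrate. Its groups were far apart and it was 2.43-fold lower (log2 fold change -1.28 ± 0.16, edgeR adjusted p = 0.00073). Irf9, which encodes the DNA-binding subunit of a type I interferon response complex, was 1.38-fold lower, Rfx5, a subunit of the RFX complex on MHC promoters, 1.31-fold and Nfkb1, which encodes the NF-κB p50 subunit, 1.25-fold (edgeR adjusted p from 0.00286 to 0.0214).

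Nlrc5, the class I transactivator gene, was at 17.0, 14.6 and 13.9 normalised CPM in control and 21.6, 20.3 and 17.0 with fenofibrate. It rose 1.29-fold (log2 fold change 0.37 ± 0.12, edgeR adjusted p = 0.0450), but fenofibrate replicate 3 was barely above control replicate 1, and only 3 of 14 alternative analyses called it (adjusted p from 0.0213 to 0.234). Fenofibrate replicate 3 was the lowest library for H2-K1, H2-Q4, Tap2 and Psmb9. For H2-Q4 it lay only narrowly below fenofibrate replicate 1 (27.1 against 27.9 normalised CPM).

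Of 10 interferon receptor and proximal signalling genes tested, 2 fell, 2 rose and 6 were not called, where 19.5% of all genes tested were called each way. Ifngr2, a chain of the interferon-γ receptor, fell from 146.9 ± 2.18 to 102.7 ± 4.59 normalised CPM (SD, n = 3 each), 1.43-fold lower (edgeR adjusted p = 0.000197). Socs3, a feedback inhibitor of JAK kinases, was 2.48-fold lower (adjusted p = 0.00073). The kinase genes Tyk2 and Jak2 rose 1.24-fold and 1.18-fold (adjusted p = 0.00816 and 0.0149).

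**Figure D4:**
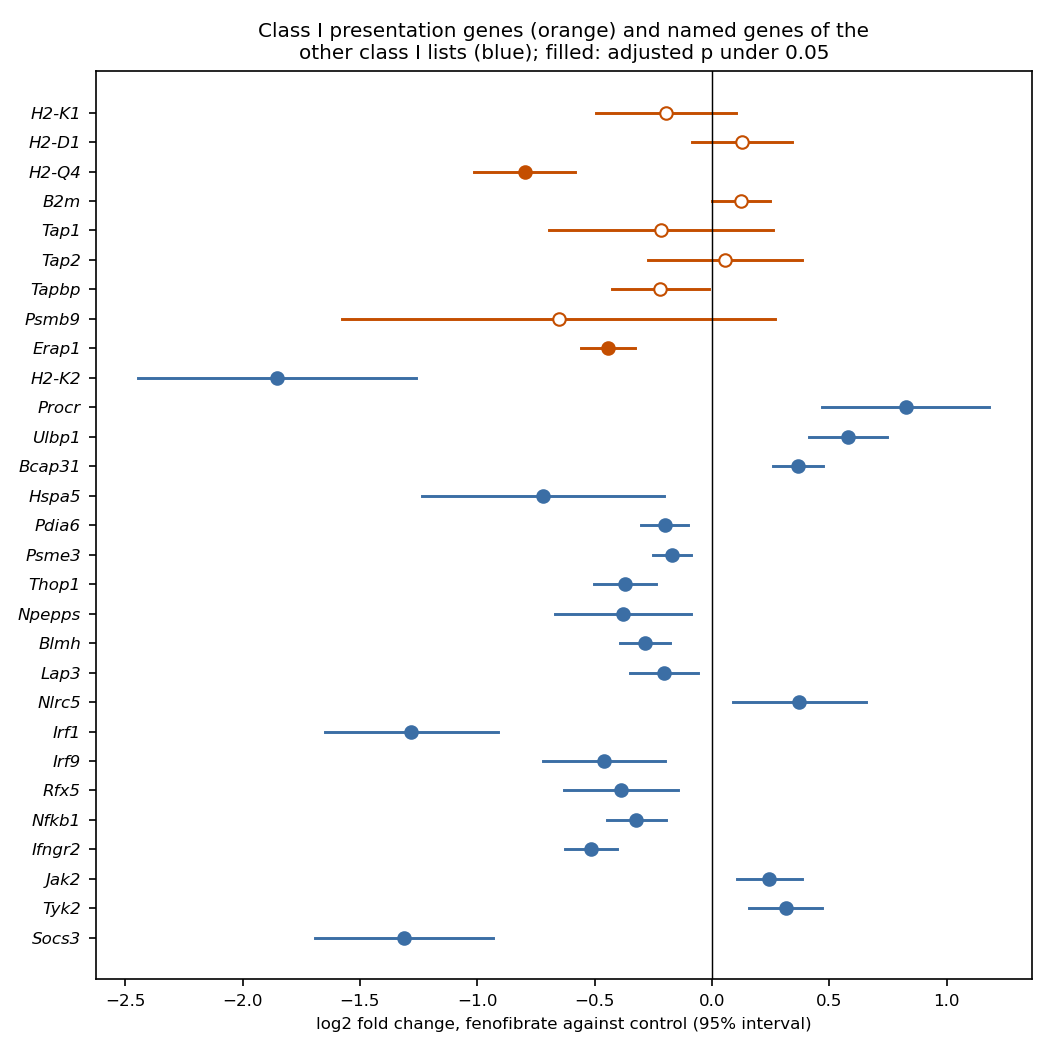
Log2 fold change, fenofibrate against control, with its 95% interval for the 9 tested class I presentation genes (orange) and for named genes of the other lists (blue). Filled points had an edgeR adjusted p under 0.05, and Cd74 and H2-DMa are left out for scale. H2-Q4 (-0.80) and Erap1 (-0.44) are the filled orange points, and the intervals of the other members except B2m and Tapbp include 0.

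Of 7 other peptidases of antigen processing, 4 fell and 3 were not called, and 6 of 7 had groups that did not overlap, where 19.5% of all genes tested were called lower and 53.3% did not overlap. The oligopeptidase gene Thop1 was 1.29-fold lower (adjusted p = 0.00189), the bleomycin hydrolase gene Blmh 1.22-fold (adjusted p = 0.0023), the aminopeptidase genes Npepps 1.3-fold (adjusted p = 0.0451) and Lap3 1.15-fold (adjusted p = 0.0348). Npepps and Lap3 were each called in 7 of 14 alternative analyses.

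Of 11 other genes of peptide loading and quality control in the endoplasmic reticulum, 2 fell, 1 rose and 8 were not called. The share of all genes tested that was called was 19.5% each way. The chaperone genes Calr (log2 fold change 0.04 ± 0.04) and Canx (-0.10 ± 0.05) and Pdia3 (-0.00347 ± 0.0532), which encodes the loading complex's disulphide isomerase ERp57, did not pass the edgeR test. Bcap31, which encodes an export factor of the endoplasmic reticulum, rose 1.29-fold (adjusted p = 0.000738). Pdia6, another disulphide isomerase gene, was 1.15-fold lower (adjusted p = 0.00827). Hspa5, the chaperone BiP gene, was called lower (adjusted p = 0.0355) with 28737, 16103 and 29535 counts in control and 13545, 14403 and 17227 with fenofibrate, so control replicate 2 lay within the treated range, and it was called in 5 of 14 alternative analyses. Of 6 other immunoproteasome and activator genes, only Psme3, of the nuclear activator PA28γ, was called (1.13-fold lower, adjusted p = 0.00705). The interferon-inducible activator genes Psme1 (log2 fold change -0.23 ± 0.10) and Psme2 (0.25 ± 0.11) did not pass, with opposite signs.

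Class II presentation genes were hardly counted. Of 10, 3 were tested, of which 2 were called higher, where 19.5% of all genes tested were called higher. Both of these 2 genes reached the minimum count of 10 in all 3 libraries only with fenofibrate. They thus entered the test through the group where they are high. Cd74, the invariant chain gene, had 11, 2 and 3 counts in control and 38, 54 and 43 with fenofibrate (edgeR adjusted p = 0.00181), and H2-DMa had 6, 4 and 8 against 17, 11 and 22 (adjusted p = 0.023, called in 8 of 14 alternative analyses). H2-Aa, H2-Ab1 and H2-Eb1 had 0 counts in every control library and at most 4 in a treated one. The summed leukocyte markers went from 3 to 6 counts per control library to 12 to 15 per treated library. Ptprc moved most, with 0, 0 and 0 counts against 6, 10 and 8. Cd79a had 9 counts in all in each group, Csf1r had 3 in control against 2, and 6 of the 12 markers were at 0 throughout. Whether cells with these markers have a part in the result was not tested.

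**Figure D5:**
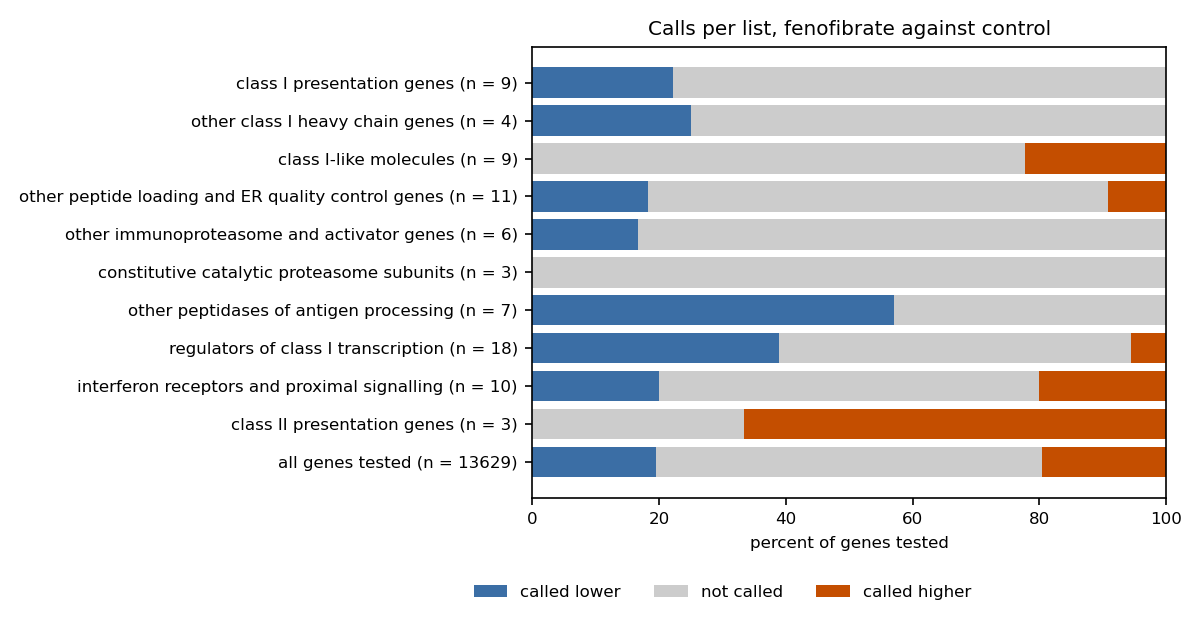
Percent of the genes tested in each list that were called lower (blue), not called (grey) or called higher (orange) with fenofibrate, n being the genes tested. The class I presentation genes had 2 of 9 called lower and 0 higher, against 19.5% lower and 19.5% higher over all 13629 genes.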

How the data were processed

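Per the file headers, the deposited table holds counts per gene, in whole numbers, and FPKM for each of 6 libraries of mRNA-enriched RNA. The submitters' processing notes name HISAT2 2.0.4, StringTie 1.3.0 and GRCm39 without roles. The counting tool, strand setting and filters are not given in the sources used here. GENCODE M21 (GRCm38) holds 99.8% of the table's gene IDs, 98.7% of them at identical coordinates, so positions are given as GRCm38.

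Counts were filtered with filterByExpr (minimum count 10), scaled by TMM and tested over 13629 genes with edgeR 4.0.16 in R 4.3.3 (quasi-likelihood test, Benjamini-Hochberg adjustment). The SE is the size of the log2 fold change divided by the square root of F. Ratios were compared by exact permutation over libraries, on log2 deposited FPKM; for Psmb8, at 0 in 1 library, the linear ratio replaced the planned log2 ratio. Levels between genes were computed from counts per merged GENCODE exon length, a scale chosen after the lengths behind the deposited FPKM were seen. Alternatives used DESeq2 1.42.0, limma 3.58.1 on log2(FPKM + 0.5) or log2(FPKM + 0.1), other scalings and filters, the replicate block and leaving out each library. The scripts were tested on simulated data. Of 133 list entries, 132 matched by symbol and 1 (Nrdc, as Nrd1) by synonym.

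Named genes were the members, Nlrc5, Irf1, the genes of the ratios, up to 4 called genes per list in the direction of most calls and 2 in the other, and the 3 genes with mean normalised CPM of at least 5 nearest to H2-K1, B2m and Tap1; others were chosen after their values were seen, and 1 gene the rule names is not reported here. The members and lists were chosen with earlier results of these data known.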

Additional observations from a re-analysis of the deposited data

How the results depend on the processing

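H2-Q4 and Erap1 were called lower in all 14 alternative analyses (log2 fold changes -0.87 to -0.73 and -0.50 to -0.43). No alternative called a member higher. Besides these, 1 member was called lower with library totals only (Tapbp) and without fenofibrate replicate 2 (Psmb9). Leaving out 1 library moved the members' median log2 fold change between -0.283 and -0.117, the latter without control replicate 1. The Tap2 log2 fold change, 0.06, changed sign to -0.00821 with limma on log2(FPKM + 0.5) with or without the filter and to -0.0110 on log2(FPKM + 0.1), and ran from -0.0457 (without fenofibrate replicate 1) to 0.196 (without fenofibrate replicate 3) when single libraries were left out; the cause was not tested. The difference in the linear Psmb8/Psmb5 ratio of deposited FPKM, 0.000440, ran from -0.000125 (without control replicate 1) to 0.00135 (without control replicate 3) when single libraries were left out, and the other ratios kept their direction. The replicate number used as a replicate block gave 4540 calls in all against 5326 and the same 0 and 2 calls among members. Deviations of same-numbered libraries correlated at 0.0203, 0.00972 and -0.0227, so no pairing by number was visible in these values. Whether same-numbered libraries were handled together is not stated in the labels. Of the list counts, 31 of 252 moved by over 1.5 times. Depth limits Psmb8 and Psmb9 most: without the filter Psmb8 had a log2 fold change of 0.31 (edgeR adjusted p = 0.877).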
